A study of Mus musculus with 2 samples.

Results

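The 47 genes described here mark endothelial cells, the cells that line blood and lymph vessels. They were taken as a list of gene symbols covering endothelial identity, cell junctions, leukocyte adhesion, transcription factors and vessel signalling, with the VEGF family left out, and the list was drawn up with earlier results of these data known. A probe set, a set of oligonucleotides that together give 1 value for a transcript, belongs to a member when the platform annotation gives it that single symbol. All 47 genes had at least 1 such probe set, 65 probe sets in all, out of 12393 genes that the annotation allows to be named.

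Total RNA of femur was measured on 2 arrays, 1 from an allograft sample and 1 from an autograft sample, both labelled with the mouse strain c57Bl/6. In an allograft the bone comes from another animal of the same species, and in an autograft from the host itself. The labels do not say whether the strain is that of the donor or the host, how long after grafting the bone was taken, or how many animals stand behind a sample. With 1 array per graft type nothing here was tested, that number limits the precision of every value, and each difference is one between these 2 arrays.

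Each array gave 22690 intensities on a linear scale. The 2% trimmed mean came to 500.2 for the allograft and 500.1 for the autograft, whereas the median came to 166.8 for the allograft and 184.2 for the autograft, so the arrays match in the first measure and not in the second. The floor used here, 175 on that scale, is the median of all values outside the control probe sets, and values under it were set to it before log2 was taken. A log2 ratio is allograft over autograft, so that 1 is a 2-fold higher and -1 a 2-fold lower value in the allograft. The 3' to 5' ratio of the beta-actin control probe sets, which rises as RNA breaks down, came to 1.77 for the allograft and 1.19 for the autograft. That of the GAPDH control probe sets came to 0.194 for the allograft and 0.0349 for the autograft, and 15 hybridisation controls over the floor had a median log2 ratio of 0.31. The part of RNA quality and hybridisation in the ratios below was not tested. Of 9 bone genes with a probe set, 8 were over the floor on both arrays, and only Sost, the secreted Wnt inhibitor of osteocytes, was below it on both.

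Endothelial cells hold the vessel wall together through adherens and tight junctions, let leukocytes pass by way of selectins and immunoglobulin-type adhesion proteins, and keep blood from clotting on their surface. In long bones the marrow is drained by wide sinusoids, and capillaries near the growth plate are rich in endomucin and PECAM1. Many endothelial genes are driven by ETS factors such as ERG and FLI1 together with SOX7, SOX17 and SOX18. Several of the genes are not limited to vessels: platelets and their precursors carry P-selectin and von Willebrand factor, red cells carry aquaporin 1, and marrow stromal cells and macrophages carry VCAM1.

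RefSeq promoter windows of build GRCm38.p6, running from 250 bases before to 50 after a gene's start, were given for 26 of the 47 genes in 30 windows. The 4 shown belong to Robo4 and Notch4, which were lower in the allograft sample, and to Selp and Procr, which were higher, and they are printed to let the reader compare the ETS core AGGAAG, in capitals on either strand. The windows are chr9:37401722-37402021, chr17:34564045-34564344, chr1:164115014-164115313 and chr2:155750967-155751266, all on the plus strand.
Robo4: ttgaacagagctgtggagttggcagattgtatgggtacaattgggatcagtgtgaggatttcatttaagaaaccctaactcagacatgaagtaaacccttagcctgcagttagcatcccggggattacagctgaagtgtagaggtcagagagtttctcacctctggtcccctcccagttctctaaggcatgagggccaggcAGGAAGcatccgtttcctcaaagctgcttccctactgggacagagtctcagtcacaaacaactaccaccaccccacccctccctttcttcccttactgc
Notch4: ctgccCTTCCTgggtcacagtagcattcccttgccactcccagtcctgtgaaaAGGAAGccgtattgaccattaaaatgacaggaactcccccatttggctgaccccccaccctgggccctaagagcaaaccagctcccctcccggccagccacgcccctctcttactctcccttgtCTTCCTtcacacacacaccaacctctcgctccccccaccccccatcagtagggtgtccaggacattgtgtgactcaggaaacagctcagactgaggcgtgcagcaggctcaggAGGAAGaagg
Selp: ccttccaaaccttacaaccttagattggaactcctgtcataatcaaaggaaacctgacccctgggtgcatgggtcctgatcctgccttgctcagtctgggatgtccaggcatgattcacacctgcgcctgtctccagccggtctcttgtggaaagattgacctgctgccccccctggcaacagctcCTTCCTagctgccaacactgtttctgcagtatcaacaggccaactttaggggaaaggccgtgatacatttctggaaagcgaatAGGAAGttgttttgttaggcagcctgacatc
Procr: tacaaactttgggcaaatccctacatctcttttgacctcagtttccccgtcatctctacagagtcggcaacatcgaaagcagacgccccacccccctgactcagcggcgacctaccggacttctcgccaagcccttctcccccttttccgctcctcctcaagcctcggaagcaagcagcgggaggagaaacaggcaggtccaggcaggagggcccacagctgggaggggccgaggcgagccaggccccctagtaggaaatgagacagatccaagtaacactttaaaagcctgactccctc

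The Robo4 window held 1 ETS core, which began 49 bases before the start. The Notch4 window held 4, the Selp window 2 and the Procr window 0. The windows of Klf2 and Gja4, which are not shown, held 0 each, and both genes had lower ratios than Notch4. Searched on both strands, AGGAAG was present in 15 of the 30 endothelial windows (50%), against 35.4% of all 32851 promoter windows. The KLF core CACCC was in 22 of 30 (73.3%), against 57.5% of all windows. The SOX cores ACAAAG or ACAATG were in 8 of 30 (26.7%), against 28.6%, and the GATA core AGATAA was in 3 of 30 (10%), against 11.2%. No match of one of these motifs overlapped a match of another in the endothelial windows. The ETS core was in the promoter of 7 of 11 genes with a log2 ratio below 0 of 3 of 6 genes with a ratio above 0 and of 4 of 9 genes below the floor. The KLF core was in the promoter of 7 of 11 genes with a ratio below 0, of 6 of 6 with a ratio above 0 and of 8 of 9 below the floor. The counts by direction are of genes and have no counterpart over all genes, whereas the shares above are of windows. A link between a motif and the direction of the ratio was not tested. These matches describe the letters of the windows and do not show that a factor binds there.

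Most listed endothelial genes over the floor were slightly lower in the allograft than in the autograft sample. Of the 47 genes, 32 were over the floor on both arrays, 4 on 1 array and 11 on neither. Of the 36 over the floor on at least 1 array, 27 had a log2 ratio below 0 (75%) and 9 above it, whereas 59.5% of all 7833 such genes on the arrays were below 0. The endothelial median log2 ratio was -0.16, and that of all 7833 genes was -0.08. A separate list of 42 further endothelial genes, given below, lay near the background. Its median was -0.10, and 60.6% of its 33 genes over the floor were below 0. Relative to the trend of the ratio with intensity, described further on, 22 of the 36 were below it, beside 50.4% of all genes. Their median relative to it was -0.056. With 1 array of whole tissue per graft type, fewer endothelial cells, less RNA per endothelial cell and differences between the arrays themselves cannot be told apart.

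Large differences were few. Of the 36 genes 1 was at least 2-fold lower in the allograft, Robo4, beside 0.753% of all genes, and 0 were at least 2-fold higher, beside 0.868% of all genes. At 1.5-fold, 3 endothelial genes were higher, Vcam1, Procr and Selp, beside 4.0% of all genes, and Robo4 was still the only one lower, beside 6.56% of all genes. Neither 2-fold count stands clear of that background in a list of 36 genes. The central 95% of all log2 ratios ran from -0.79 to 0.70, and 2 of the 36 genes lay outside it, Robo4 below and Vcam1 above.

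**Figure D1:**
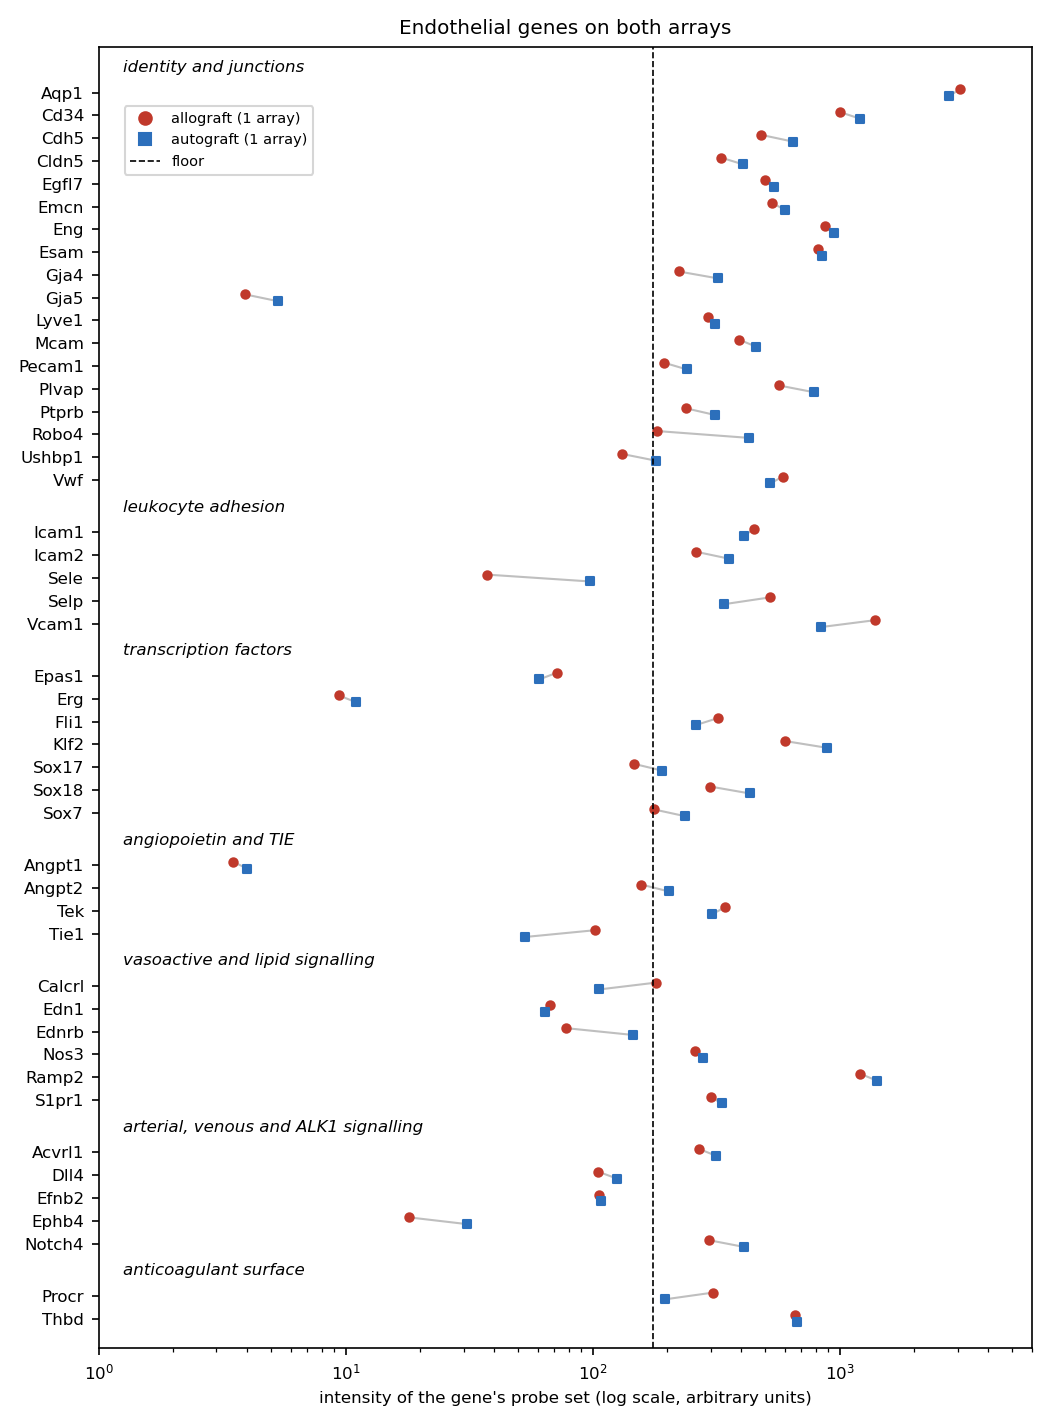
Intensity of the probe set used for each of the 47 endothelial genes (log scale, arbitrary units), grouped by role, with the allograft array as circles, the autograft array as squares and the floor of 175 as a dashed line. Circles lie left of squares in most rows over the floor, Robo4 has the widest gap among them, and Vcam1, Selp and Procr run the other way.

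Most genes of endothelial identity and junctions had a lower value in the allograft sample. Of 18 genes, 16 were over the floor on both arrays and 1 on the autograft array alone. Of these 17, 15 had a ratio below 0 (88.2%, beside 59.5% of all genes), with a median of -0.23. Relative to the trend of the ratio with intensity, described further on, 12 of the 17 were below it, beside 50.4% of all genes, and the median was -0.11. Robo4, a roundabout receptor that stabilises vessels, read 182.1 in the allograft and 427.9 in the autograft, 2.35-fold lower. Its allograft value was just over the floor, its log2 ratio of -1.23 was the 21st lowest of 7833 genes, and it rests on a single probe set.

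Next to Robo4, the gap junction gene Gja4 (connexin 37, found in arterial endothelium) read 223.2 in the allograft and 320.2 in the autograft, a log2 ratio of -0.52. Plvap, which forms the diaphragms of fenestrated and sinusoidal endothelium, read 567.3 in the allograft and 788.1 in the autograft, a ratio of -0.47. Cdh5, the cadherin of endothelial adherens junctions, read 478.2 in the allograft and 645.5 in the autograft (-0.43). These 3 junction and wall genes were each between 1.35-fold and 1.43-fold lower. Ptprb, the phosphatase VE-PTP that acts on that cadherin and on TIE2, read 237.9 in the allograft and 313.8 in the autograft (-0.40). Pecam1, the platelet endothelial adhesion protein, read 194.2 in the allograft and 240.9 in the autograft (-0.31).

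Smaller gaps in the same direction were seen for the tight junction gene Cldn5, at 330.1 in the allograft and 406.1 in the autograft (-0.30), and for Cd34, a surface sialomucin of endothelium and blood progenitors, at 998.0 in the allograft and 1212.2 in the autograft (-0.28). Mcam (CD146), an adhesion protein shared with pericytes, read 392.6 in the allograft and 459.5 in the autograft (-0.23). Emcn, the sialomucin of veins, sinusoids and growth plate capillaries, read 534.0 in the allograft and 601.0 in the autograft (-0.17). These 4 ratios lie between the median of all genes and the lower edge of their central 95%. Egfl7, a secreted endothelial factor, stood at -0.12 (497.8 in the allograft, 541.8 in the autograft) and Eng, the TGF-beta co-receptor endoglin, also at -0.12 (874.6 in the allograft, 951.5 in the autograft).

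The remaining identity genes were nearly level. Lyve1, the hyaluronan receptor of lymphatic and sinusoidal endothelium and of some macrophages, read 292.8 in the allograft and 312.0 in the autograft (-0.09), and the junction protein gene Esam read 813.8 in the allograft and 849.4 in the autograft (-0.06), but both ratios turned positive once the trend of the ratio with intensity was removed. Ushbp1 was over the floor in the autograft alone (130.8 in the allograft, 180.0 in the autograft), so that it was at least 1.03-fold lower in the allograft, and this too turned with the trend. The 2 genes of this group with a ratio above 0 were Vwf, at 587.7 in the allograft and 523.3 in the autograft (0.17), and Aqp1, a water channel, at 3075 in the allograft and 2765 in the autograft (0.15). Both are also expressed outside vessels, Vwf in megakaryocytes and Aqp1 in red cells and their precursors.

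Of the 5 leukocyte adhesion genes, 4 were over the floor, 3 with a ratio above 0 and 1 below it. Vcam1, the ligand of the integrin VLA-4, read 1387 in the allograft and 841.8 in the autograft, 1.65-fold higher, and its log2 ratio of 0.72 was the highest of the endothelial genes and the 183rd highest of 7833. Selp, which encodes P-selectin of endothelium and platelets, read 521.0 in the allograft and 339.3 in the autograft, 1.54-fold higher (0.62). Icam1, the inducible ligand of leukocyte integrins, was close to level at 449.2 in the allograft and 408.8 in the autograft (0.14). Icam2, its constitutive endothelial relative, had a ratio below 0, at 263.1 in the allograft and 355.5 in the autograft (-0.43). Sele, the E-selectin gene that endothelium turns on in inflammation, was below the floor on both arrays (37.4 in the allograft, 97.5 in the autograft), so it gives no ratio.

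Of the 7 transcription factors, 4 were over the floor on both arrays and 1 on the autograft array alone. Klf2, a factor that endothelium makes under flow and that T cells and myeloid cells also make, read 598.9 in the allograft and 889.0 in the autograft, 1.48-fold lower (-0.57), the lowest endothelial ratio after Robo4. Of the SOXF genes, Sox18 read 299.6 in the allograft and 431.3 in the autograft (-0.53), and Sox7 read 176.6 in the allograft and 236.7 in the autograft (-0.42), the allograft value being just over the floor. Sox17 was over the floor in the autograft alone (146.6 in the allograft, 191.0 in the autograft), so that it was at least 1.09-fold lower in the allograft. Fli1, an ETS factor of endothelium and of megakaryocytes, went the other way at 320.1 in the allograft and 261.8 in the autograft (0.29). Its relative Erg, at 9.4 in the allograft and 11.0 in the autograft, and Epas1, which encodes the hypoxia factor HIF-2 alpha, at 71.8 in the allograft and 60.7 in the autograft, were below the floor on both arrays.

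The receptor and ligand genes of the angiopoietin and TIE system gave few values over the floor. Tek, which encodes the angiopoietin receptor TIE2 of endothelium and some blood stem cells, read 342.5 in the allograft and 304.4 in the autograft (0.17). Angpt2, the ligand that endothelium releases when vessels are remodelled, was over the floor in the autograft alone (157.4 in the allograft, 203.2 in the autograft), at least 1.16-fold lower in the allograft. Tie1, the companion receptor, read 102.6 in the allograft and 53.2 in the autograft, and Angpt1, the ligand made by stromal and mural cells, 3.5 in the allograft and 4.0 in the autograft, all below the floor. The ratio of TIE2 and that of its phosphatase gene Ptprb had opposite signs.

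Among genes of vascular tone and of sphingosine signalling, Ramp2, a partner that the receptor CALCRL needs to bind adrenomedullin, read 1211 in the allograft and 1409 in the autograft (-0.22). Calcrl itself was over the floor in the allograft alone (180.8 in the allograft, 106.5 in the autograft), at least 1.03-fold higher there, so by these probe sets the receptor and its partner leaned opposite ways. The allograft value of Calcrl was just over the floor, and its second probe set was below it on both arrays (11.4 in the allograft, 15.1 in the autograft). S1pr1, the sphingosine 1-phosphate receptor that tightens junctions, read 300.2 in the allograft and 332.4 in the autograft (-0.15). Nos3, the nitric oxide synthase of endothelium, was close to level at 258.8 in the allograft and 280.0 in the autograft (-0.11), a ratio that turned positive once the intensity trend was removed. Edn1, the constrictor peptide endothelin 1, at 67.3 in the allograft and 64.3 in the autograft, and Ednrb, one of its receptors, at 78.2 in the allograft and 146.1 in the autograft, were below the floor.

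Of 5 genes of arterial and venous identity and of ALK1 signalling, only Notch4 and Acvrl1 were over the floor, on both arrays. Notch4, the Notch receptor of endothelium, read 294.5 in the allograft and 410.6 in the autograft, 1.39-fold lower (-0.48). Acvrl1, which encodes the BMP9 receptor ALK1, read 269.5 in the allograft and 315.8 in the autograft (-0.23). Both leaned lower, as did Eng, the co-receptor of ALK1. Dll4, the arterial Notch ligand, at 105.4 in the allograft and 125.4 in the autograft, Efnb2, the arterial ephrin, at 106.1 in the allograft and 107.9 in the autograft, and Ephb4, its venous receptor, at 18.0 in the allograft and 31.1 in the autograft, were below the floor, so the arterial to venous balance could not be read from this pair.

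The 2 anticoagulant surface genes differed from one another. Procr, the endothelial protein C receptor, which blood stem cells also carry, read 308.0 in the allograft and 195.6 in the autograft, 1.57-fold higher (0.66). Its only probe set bears the mark for oligonucleotides that may match several transcripts. Thbd, thrombomodulin, was level at 661.6 in the allograft and 673.9 in the autograft (-0.03), with a sign that depended on the scaling. The arterial connexin gene Gja5, at 3.9 in the allograft and 5.3 in the autograft, was the only identity gene below the floor on both arrays.

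**Figure D2:**
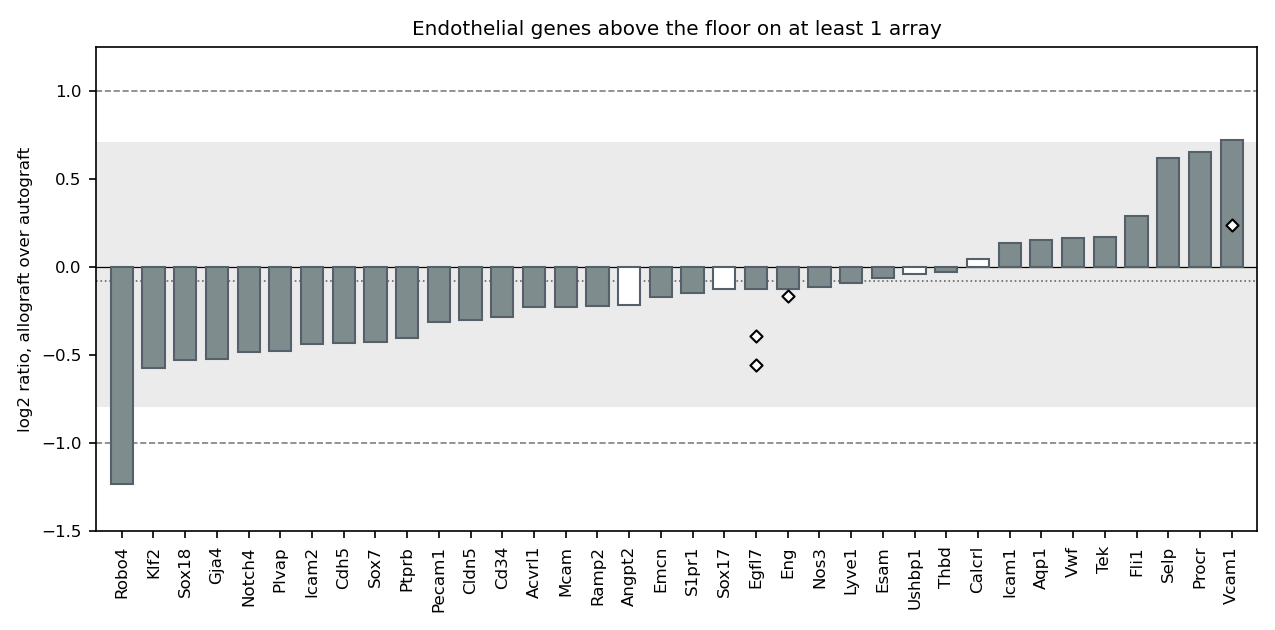
Log2 ratio of allograft over autograft for the 36 endothelial genes over the floor on at least 1 array, ordered by ratio. Filled bars are over the floor on both arrays, open bars on 1 array (bounds), diamonds are other probe sets of the same gene, the grey band is the central 95% of all 7833 genes, the dotted line is their median and the dashed lines mark 2-fold; Robo4 alone passes -1.

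Where a gene had several probe sets, they offered a check within the same pair of arrays. Of the 13 endothelial genes with more than 1 probe set, 3 had more than 1 over the floor. For Egfl7, the further probe sets read 411.1 in the allograft and 538.9 in the autograft (-0.39) and 386.7 in the allograft and 567.3 in the autograft (-0.55), so all 3 were below 0 but spread from -0.12 to -0.55. Those at -0.12 and -0.39 bear a mark for oligonucleotides that may match several transcripts, and that at -0.55 does not. The probe set used for Sox17 bears such a mark too. For Eng, the other probe set read 404.1 in the allograft and 452.3 in the autograft (-0.16), close to the first. For Vcam1, the other probe set over the floor read 226.3 in the allograft and 192.0 in the autograft (0.24), the same direction at a smaller size. The second probe set of Cdh5 was below the floor (74.1 in the allograft, 79.5 in the autograft), and so was that of Selp (24.8 in the allograft, 4.6 in the autograft).

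Most endothelial ratios are of a size at which 2 probe sets of one gene often part. Over all 1925 genes with 2 probe sets over the floor on both arrays, the log2 ratios of both differed with an SD of 0.44. For 435 genes whose brighter probe set stood between -0.6 and -0.2, a range chosen after the endothelial values were seen, the second was below 0 too in 299 (68.7%), whereas 53.4% of all second probe sets were below 0. Of the 36 endothelial genes, Robo4, Vcam1, Procr, Selp and 5 with ratios from -0.57 to -0.47 had a ratio larger in size than 0.44, 9 in all (25%), beside 21.3% of all genes. Counted by probe set, 36 of 65 were over the floor on both arrays, 4 on 1 and 25 on neither, and 30 of the 40 with a ratio were below 0, beside 58.3% of all 11010 such probe sets.

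The ratio of all genes varied with intensity, and part of the endothelial lean lies along that trend. A lowess curve of the log2 ratio on the mean log2 intensity was below 0 over the range in which most endothelial genes lie, with a median of -0.11 at their intensities. Relative to it, 22 of 36 endothelial genes were below the curve, beside 50.4% of all genes, and their median was -0.056. The genes farthest under the curve were Robo4 at -1.09, Klf2 at -0.48, Sox18 at -0.40, Plvap and Gja4 at -0.38 each, Notch4 at -0.35 and Cdh5 at -0.33. Farthest over it were Vcam1 at 0.80, Procr at 0.78, Selp at 0.74 and Fli1 at 0.43.

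**Figure D3:**
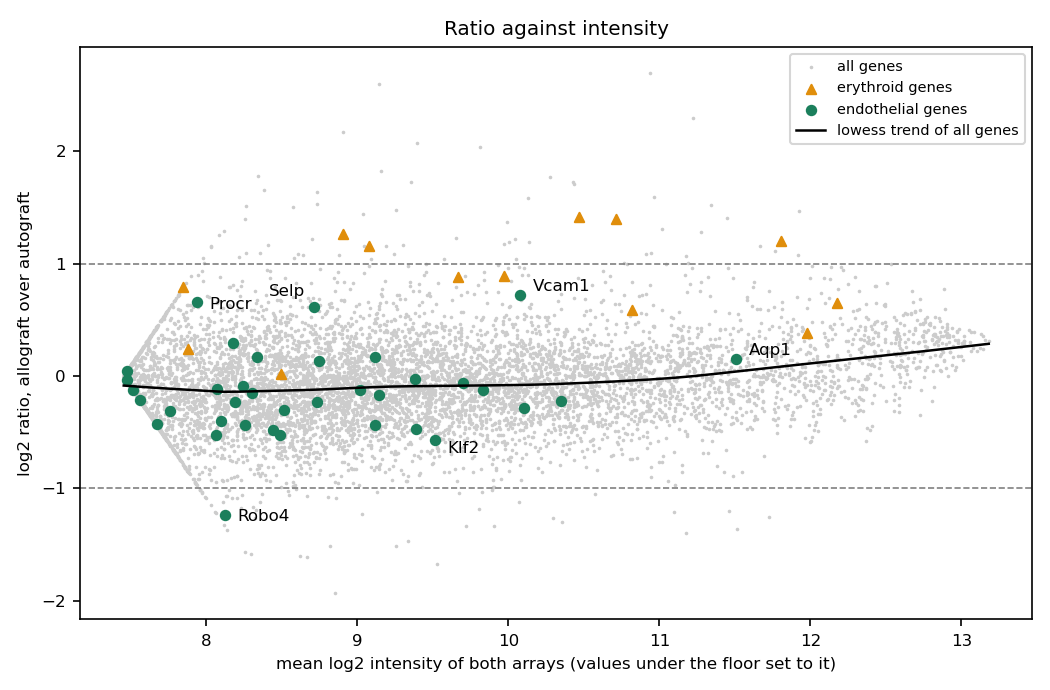
Log2 ratio of allograft over autograft against mean log2 intensity for all 7833 genes over the floor on at least 1 array (grey), the 36 endothelial genes (circles) and the 13 erythroid genes (triangles), with the lowess trend of all genes and dashed lines at 2-fold. Most circles lie within the grey cloud, 22 of 36 under the curve, while all 13 triangles lie over it.

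Other genes of the vessel wall were compared through lists that share no member with the 47 genes. The VEGF ligands and receptors had a median log2 ratio of -0.37 over 8 genes over the floor, 6 of them (75%) below 0, beside 59.5% of all genes, and none 2-fold apart. With the floor raised to the 75th percentile, 6 of these genes were left and their median was -0.09. Their lowest were Vegfa, at 472.9 in the allograft and 755.7 in the autograft (-0.68), and Flt1, which encodes VEGFR1 and was over the floor in the autograft alone. Kdr, which encodes VEGFR2, read 466.1 in the allograft and 580.9 in the autograft (-0.32), a ratio like those of Pecam1 and Cldn5. A list of 42 further endothelial genes lay near the background, with a median of -0.10 over 33 over the floor and 20 of them (60.6%) below 0, beside -0.08 and 59.5% for all genes. Its lowest was Smad6, an inhibitor of BMP signalling, at 225.9 in the allograft and 340.5 in the autograft (-0.59). Its highest was Tal1, at 868.2 in the allograft and 319.0 in the autograft (1.44), the only one 2-fold apart, which encodes a factor of endothelium and of red cell precursors. Smooth muscle and pericyte genes had a median of -0.14 over 9 genes, 6 of them below 0, from Cspg4 (NG2, -0.59) to Tagln (transgelin, 0.44). Under quantile normalization the median was -0.32 for this list and -0.10 for the endothelial genes.

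Markers of blood cells that share some of the endothelial genes were higher in the allograft sample for one lineage and split for others. All 13 erythroid genes with a probe set had a ratio above 0 by the probe set used, with a median of 0.88, whereas 59.5% of all genes were below 0. Among them Ank1, counted at 0.59, had a further probe set at -0.16, Add2 was level at 0.02, and the ratio of Epb42 (0.79) is a bound. Summed over the erythroid genes over the floor, intensity came to 28005.5 in the allograft and 15649.9 in the autograft. At least 2-fold higher were 5 of the 13, beside 0.868% of all genes. Of 9 megakaryocyte and platelet genes, 8 were over the floor, 4 with a ratio above 0 and 4 below it, with a median of 0.05 and a summed intensity of 12830.5 in the allograft and 10565.1 in the autograft. Within that list Clec1b (0.47), Ppbp (0.44) and Pf4 (0.29) were highest, and Itgb3 was below the floor on both arrays. Of 12 macrophage genes 11 were over the floor, 6 with a ratio above 0, with a median of 0.07 and sums of 29399.3 in the allograft and 25453.3 in the autograft. Csf1r, the highest of these at 0.65, had further probe sets at -0.03 and -0.59. Its brightest probe set, at 8219.0 in the allograft and 5221.1 in the autograft, has the widest gap of those behind the macrophage sums.

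The part of red cell precursors, platelets, macrophages, other blood cells, pericytes and stromal cells in the endothelial ratios was not tested. This holds for shared genes with a ratio above 0 (Aqp1, Vwf, Selp, Fli1, Tek, Procr and Vcam1). It holds equally for shared genes with a ratio below 0, such as Cd34, Klf2, Mcam and Lyve1. Marrow stroma genes had a median of -0.04 over 6 over the floor, 3 on either side of 0, beside 59.5% of all genes below 0. Lepr and Il7 were below the floor on both arrays, and the sums were 11207.6 in the allograft and 9089.7 in the autograft. Adipoq alone read 4839 in the allograft and 2176 in the autograft, a wider gap than that between these sums. Blood stem and progenitor genes had a median of -0.12 over 5 over the floor, 3 of them below 0, with sums of 1543.4 in the allograft and 1601.0 in the autograft, and the median was 0.013 under quantile normalization. Genes of leukocytes in general had a median of 0.29 over 7 genes, 4 of them above 0, with sums of 22677.3 in the allograft and 20488.3 in the autograft, and the median was 0.036 under quantile normalization. Laptm5, counted above 0 at 0.52, had further probe sets at -0.76 and -0.65 (a bound), so the direction of this list depends on the probe set chosen.

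The bone genes were split. Of the 8 over the floor, 5 had a ratio below 0 and 3 above it, beside 59.5% of all genes below 0. The bone median was -0.38, and the sums were 23125.5 in the allograft and 20372.0 in the autograft. The gap in Col1a1 alone, given below, is wider than that between these sums and in the same direction. Alpl, the alkaline phosphatase of osteoblasts, read 2197 in the allograft and 5240.8 in the autograft (-1.25). The osteocyte genes Dmp1 (-0.83) and Phex (-0.65) and Sp7, the osteoblast factor osterix (-0.60), were lower by less than 2-fold. Col1a1, which encodes a chain of type I collagen, read 4994 in the allograft and 770.7 in the autograft (2.70), the highest ratio of all 7833 genes, and Col1a2, the gene of its partner chain, stood at 1.11. The part of bone cells in the endothelial ratios was not tested.

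**Figure D4:**
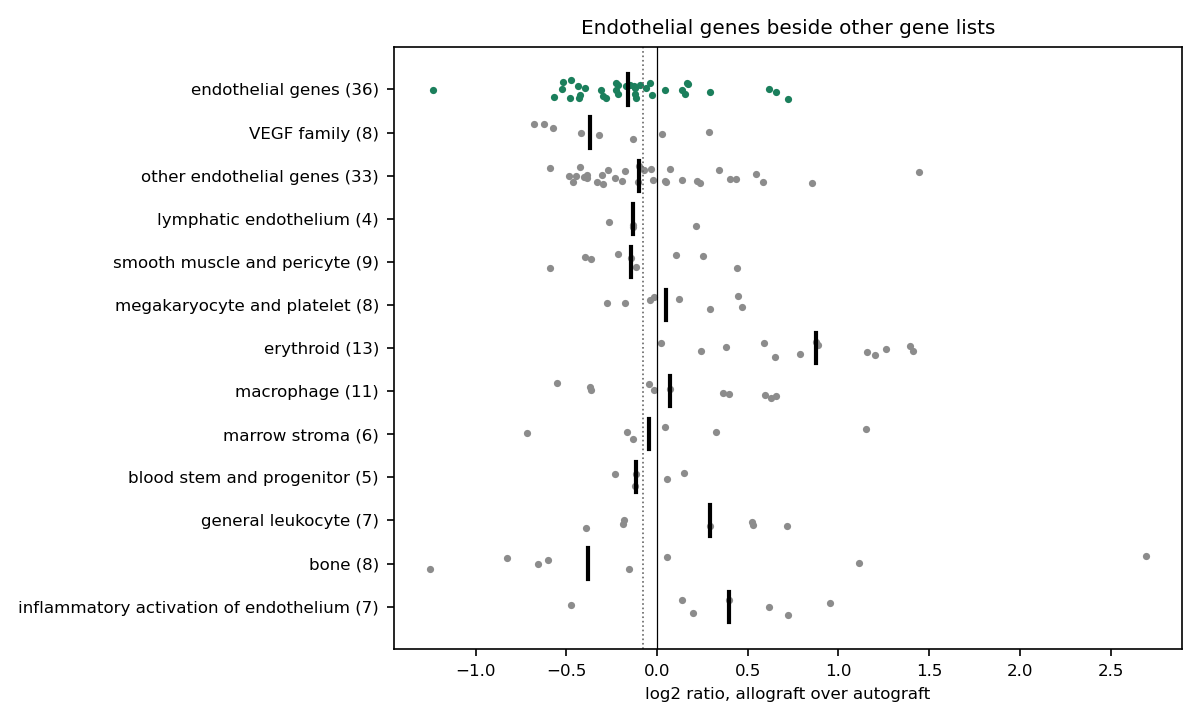
Log2 ratio of allograft over autograft of single genes (dots) in the endothelial list and 12 comparison lists, with each list's median as a bar, the number of genes over the floor in brackets and the median of all genes as a dotted line. The endothelial median is -0.16, that of mural genes -0.14 (-0.32 under quantile normalization) and that of further endothelial genes -0.10, and the erythroid median of 0.88 is farthest right; 3 endothelial genes, Icam1, Selp and Vcam1, also stand in the inflammatory list.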

How the data were processed

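Intensities of 22690 probe sets on 2 arrays, 1 per graft type, were used as deposited. They are linear intensities, and the 2% trimmed means of the deposited values are nearly equal; how the authors computed them is not given in the sources used here. Samples were grouped by title. The 64 control probe sets were left out. Gene names came from the platform annotation (20380 probe sets with 1 symbol, 691 with several, 1555 not listed); the Entrez identifiers of all 47 endothelial genes are in the RefSeq gene table of GRCm38.p6. No coordinates of array probes are given.

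Of several probe sets of a gene, that of highest mean intensity stood for it. Values under the floor, the median of both arrays' non-control intensities, were set to it, and a gene over the floor on 1 array has a ratio that is a bound. No test was made, since each graft type has 1 array. Every endothelial gene was named, with both intensities. The genes, their grouping by role and the 12 comparison lists were chosen with earlier results of these data known. The counting steps were tested on simulated data. The alternatives were other scalings, a lowess trend with a span of 0.4, a floor at either quartile (25th or 75th percentile), an offset of 16 in place of a floor, other choices of probe set, and thresholds of 1.5-fold and 4-fold. Promoter windows came from RefSeq (GRCm38.p6). Tables were handled in pandas 2.3.3 and numpy 2.4.6 under Python 3.11.15, curves were fitted with statsmodels 0.14.6, trimmed means were taken with scipy 1.17.1, and plots were drawn in matplotlib 3.10.9.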

Additional observations from a re-analysis of the deposited data

How the results depend on the processing

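The lean of the endothelial genes was small under each setting run. Their median log2 ratio stayed below 0 in all of them, between -0.22 (a 25th percentile floor) and -0.056 with the lowess trend removed. Robo4 alone was at least 2-fold lower except under a floor at the 75th percentile or under a 4-fold threshold, where 0 genes were, and 0 genes were 2-fold higher in any scaling or floor, while 3 passed 1.5-fold. With the floor at the 75th percentile, 9 endothelial probe sets were above it on both arrays, against 36. Of the 36 genes, 31 kept the sign of their ratio in every scaling, floor and probe set choice that gave one, 22 below 0 and 9 above, and Esam, Ushbp1, Lyve1, Nos3 and Thbd did not. Calcrl stood at 0.76 (25th percentile floor) and at 0.68 (no floor), against 0.05, since its autograft value lies under the main floor. Vcam1 stood at 0.24 by its dimmest probe set. Of 60 list medians under other scalings and floors, 12 differed by 0.1 or more from the value given. Beside those stated in the text they were the platelet list at 0.37 over 4 genes and the erythroid list at 0.76 (75th percentile floor), the blood stem list at 0.054 over 1 gene and the inflammatory list at 0.23 over 4 genes under that same floor, the stromal list at -0.15 (25th percentile floor) and the bone list at -0.60 under either other floor. Of the inflammatory list, 1 gene was 2-fold higher in the 3 other scalings and 1 was 2-fold lower with the 25th percentile floor. The cause of the other differences was not tested. No paired analysis was possible because each graft type has 1 array.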

Other observations

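Genes that inflamed endothelium makes were tallied as a list of 14 with a probe set, 4 of which are endothelial genes already given. Of these 14, 7 were below the floor on both arrays, among them Sele, Il6, Tnf, Cxcl1 and the tissue factor gene F3. The other 7 had a median log2 ratio of 0.39, 6 of them above 0, where 59.5% of all genes were below it; 3 of these 6 are Icam1, Selp and Vcam1, already given. With the floor lowered to the 25th percentile the median was 0.14 over 13 genes. Nfkbia, counted above 0 at 0.20, had further probe sets at 0.17 (a bound), 0.16 and -0.29. Which cells of the whole femur gave the values of this list was not tested. Cxcl2, a chemokine that draws neutrophils, read 601.8 in the allograft and 310.5 in the autograft (0.95), and Il1b, the interleukin 1 beta gene, read 672.4 in the allograft and 511.6 in the autograft (0.39). Ccl2, a chemokine for monocytes, read 226.5 in the allograft and 314.9 in the autograft (-0.48).

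Of 5 lymphatic genes with a probe set, 4 were over the floor on at least 1 array, with a median of -0.13. Prox1, the factor that sets lymphatic identity, was below it on both (55.9 in the allograft, 79.5 in the autograft). Pdpn, podoplanin, which osteocytes make as well, read 1996 in the allograft and 2190 in the autograft (-0.13).

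A pair of probe sets that match both Ramp2 and Vps25 were left out of the gene values. One read 292.3 in the allograft and 282.5 in the autograft (0.05), and the other 858.5 in the allograft and 1093 in the autograft (-0.35), on either side of the ratio of -0.22 of the probe set for Ramp2 alone.

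Adipoq, the adiponectin gene of fat cells and marrow stromal precursors, read 4839 in the allograft and 2176 in the autograft (1.15), the only stromal gene 2-fold apart. Foxc1, a factor of marrow stromal cells, read 274.9 in the allograft and 451.3 in the autograft (-0.72).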
